A study of Mus musculus with 15 samples.

Results

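The subunits of the proteasome, the protease that degrades ubiquitin-tagged proteins, were described by the messenger RNA levels of their genes in mouse liver. Members were taken by name, as every row of the expression table whose symbol is Psma, Psmb, Psmc, Psmd or Psme followed by a number, which gave 43 of 18510 rows. This choice was made with earlier results of these data known. The members comprise 8 genes of the alpha rings, 7 of the beta rings, 3 immunoproteasome genes that were kept apart (Psmb8, Psmb9 and Psmb10), Psmb11 of the thymus, 6 ATPases, 14 non-ATPase genes and 4 activators. Of these, 41 had 1 FPKM or more in 5 or more of the 15 libraries and were tested. Psma8 and Psmb11 were not.

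Each library was made from mouse liver, with 3 groups of 5. Ctrl mice had the control diet, Alc mice an alcohol diet, and Alc UA mice the alcohol diet together with UA, which the labels do not spell out. All groups were wild type, and their strain, sex and age, the dose of alcohol or UA and the length of feeding are not stated in the labels. Levels are FPKM, in which the fragments of a transcript are divided by its length and by the size of the library, so they can be set side by side between genes. Each is a mean ± SD over n = 5 libraries of a group, and libraries are listed from replicate 1 to 5, an order to which the labels give no meaning. Differences are log2 fold changes of FPKM + 1 with their SE, and p-values are from limma, with Benjamini-Hochberg adjustment over all 10959 genes tested. A difference was called at an adjusted p under 0.05, and a p that misses this threshold does not show that the levels were equal. Alc and Alc UA were both set against the same Ctrl libraries, so the results of those comparisons are not independent.

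As background, the 20S core of the proteasome is a barrel of stacked rings, in which outer alpha rings form a gate and inner beta rings hold the proteolytic sites. The 19S regulatory particle caps the barrel, and its base of ATPases unfolds substrates while its lid and ubiquitin receptors bind them and remove ubiquitin. Other caps, the Psme activators, open the gate without ATP. Interferon-gamma induces Psmb8, Psmb9 and Psmb10, which replace the constitutive catalytic subunits in newly made cores and shift the peptides produced toward those presented by MHC class I. In mammals the transcription factor NRF1, encoded by Nfe2l1, raises subunit genes together when proteasome activity is short, through antioxidant response elements. Chronic alcohol is known for altering hepatic proteasome activity.

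Promoter sequences are shown for 4 members on which the results below turn, Psmd4 with the largest fall, Psmc1 with a rise, the catalytic Psmb5, and its interferon-induced counterpart Psmb8. They are the 200 bases before the annotated start, read 5′ to 3′ on the strand of the gene, from RefSeq on build GRCm38.p6, at chr3:95042615-95042814 on the minus strand for Psmd4, chr12:100110002-100110201 on the plus strand for Psmc1, chr14:54617996-54618195 on the minus strand for Psmb5 and chr17:34197995-34198194 on the plus strand for Psmb8. For the FPKM table itself, a build is not given in the sources used. Capitals mark matches, on either strand, to the core of the antioxidant response element (TGACNNNGC), the CCAAT box (CCAAT, or ATTGG on the other strand), the core of the interferon-stimulated response element (GAAA and GAAA with any 2 bases between) and the gamma-activated site (TTCNNNGAA).
Psmd4: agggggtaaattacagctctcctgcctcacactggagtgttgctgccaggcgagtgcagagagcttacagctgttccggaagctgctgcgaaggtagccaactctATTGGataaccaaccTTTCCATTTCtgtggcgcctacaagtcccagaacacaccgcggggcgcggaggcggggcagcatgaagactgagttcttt
Psmc1: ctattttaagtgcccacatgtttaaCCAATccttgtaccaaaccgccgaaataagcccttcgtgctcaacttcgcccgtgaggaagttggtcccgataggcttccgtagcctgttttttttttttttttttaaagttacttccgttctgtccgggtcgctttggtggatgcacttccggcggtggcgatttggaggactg
Psmb5: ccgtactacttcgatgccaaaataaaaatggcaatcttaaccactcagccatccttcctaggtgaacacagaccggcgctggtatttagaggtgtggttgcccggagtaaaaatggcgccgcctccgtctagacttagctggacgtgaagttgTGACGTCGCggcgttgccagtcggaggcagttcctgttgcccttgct
Psmb8: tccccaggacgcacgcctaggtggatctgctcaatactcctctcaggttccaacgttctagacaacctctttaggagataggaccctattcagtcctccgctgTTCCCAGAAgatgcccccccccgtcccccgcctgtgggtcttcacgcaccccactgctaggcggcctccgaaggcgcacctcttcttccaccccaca
In Psmd4 the capitals are a CCAAT box and, in reverse complement, an interferon-stimulated response element core. Psmc1 holds a CCAAT box, Psmb5 an antioxidant response element core whose first base lies at position -47 from the start, and Psmb8 a gamma-activated site at -97. In the window from 250 bases before to 50 after the start, searched in the 36 members with an entry, the antioxidant response element core stood in 6 members (16.7%) and in 14.0% of 27025 genes. The CCAAT box stood in 14 members (38.9%) and in 41.1% of genes, and the gamma-activated site in 2 members (5.56%) and 9.55% of genes. The interferon-stimulated core stood in 4 members (11.1%), Psmb3, Psmd4, Psmd9 and Psme1, and in 3.99% of genes. These matches are descriptions of the letters, not binding sites.

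Summed FPKM ranged from 551153 to 668832 over the libraries, with 10119 to 11471 genes at 1 FPKM or more. The number of reads is unknown. Ctrl 1 had the most such genes of all libraries (11471) and Ctrl 5 the fewest of Ctrl (10305), and the counts below are also given without both, an alternative chosen after seeing the data. Hepatocyte markers (5 genes) summed to between 25773 and 55378 FPKM in the 15 libraries, above the sums of every other marker list. Markers of other cells moved with the groups. Of 6 sinusoidal endothelial markers, 5 were called lower in Alc than in Ctrl, with sums of 86.5 to 245 FPKM in Ctrl, 38.8 to 80.7 in Alc and 38.2 to 54.5 in Alc UA. All 5 erythroid markers were called lower, at sums of 1431 to 8800 FPKM in Ctrl, 576 to 988 in Alc and 346 to 1033 in Alc UA. Among hepatocyte markers, 2 of 5 were called lower (Apoa1 and Ttr), and no marker of stellate cells (0 of 4) or cholangiocytes (0 of 3 tested) was called. Alb, Cps1 and Hnf4a were not called, at log2 fold changes of 0.43, 0.31 and -0.026. Under the other scalings of the libraries described below, 0, 0 and 1 hepatocyte markers were called lower in Alc. The 5 endothelial and 5 erythroid calls in Alc were kept under each. No marker of any list was at 0 in all libraries of a group. In bulk tissue, fewer cells of a type and less RNA per cell cannot be told apart, and the part of these shifts in the results below was not tested.

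Proteasome messenger RNA was abundant in all 3 groups. The 43 members together made up 0.418% to 0.442% of summed FPKM in Ctrl, 0.389% to 0.480% in Alc and 0.349% to 0.451% in Alc UA, ranges that overlapped. In Ctrl the group means of single members ran from 7.66 FPKM for Psmd10, an assembly chaperone of the base, to 153 FPKM for Psmb7, which carries the trypsin-like site, among the 41 members tested. Core genes were the most abundant, with summed levels of 662 ± 54.5 FPKM for the alpha rings and 781 ± 72.0 for the constitutive beta rings in Ctrl. The ATPases summed to 392 ± 19.1 FPKM, the non-ATPases to 567 ± 19.3, the activators to 233 ± 30.7 and the 3 immunoproteasome genes to 64.8 ± 19.8. In Alc the alpha sum was 576 ± 57.4, the beta sum 670.1 ± 76.0, the ATPase sum 353 ± 26.8, the non-ATPase sum 519 ± 35.8, the activator sum 220.3 ± 28.4 and the immunoproteasome sum 76.4 ± 14.3 FPKM. In Alc UA they were 563 ± 44.8, 658 ± 57.3, 356 ± 30.0, 539 ± 33.3, 198 ± 17.7 and 70.2 ± 18.7 FPKM, in the same order. For every subcomplex sum, the libraries of Alc and Alc UA overlapped those of Ctrl.

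**Figure D1:**
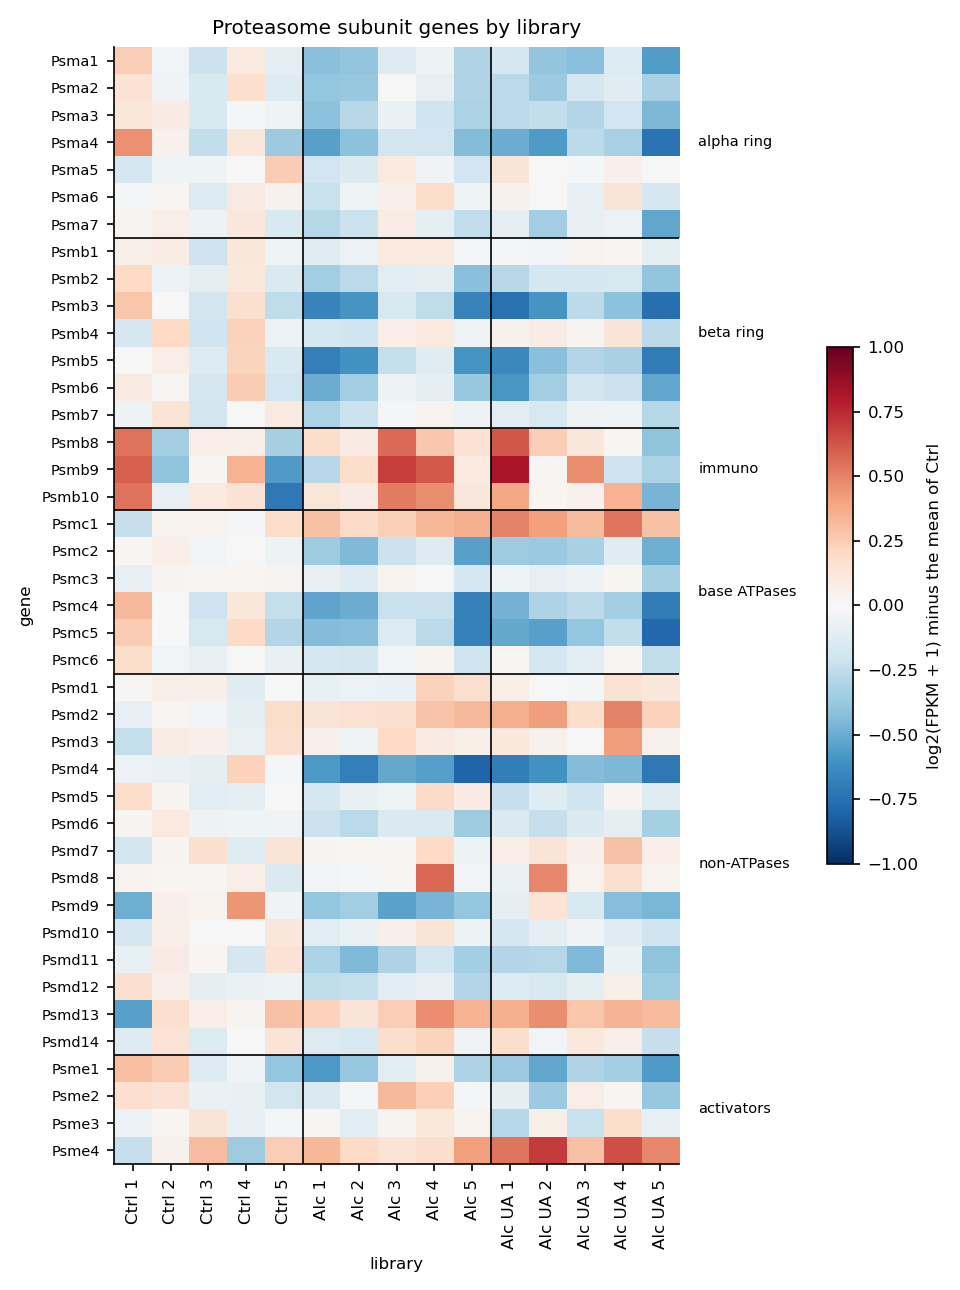
Level of each tested proteasome gene (rows, grouped by subcomplex) in each of the 15 libraries (columns, 5 per group), as log2(FPKM + 1) minus the gene's mean over the Ctrl libraries. Psmd4, Psmb5, Psmb3, Psmc2 and Psmc4 stand higher on average in the Ctrl columns than in the alcohol columns, Psmc1 stands lower there, and no row separates Alc from Alc UA.

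In alcohol-fed livers, subunit genes moved unequally, most of those called being lower and 1 being higher. Against Ctrl, 11 of 41 members (26.8%) fell in Alc, beside 22.8% of all genes tested. They were Psma3 and the beta genes Psmb2, Psmb3 and Psmb5, the ATPases Psmc2, Psmc4 and Psmc5, and the non-ATPase genes Psmd4, Psmd6, Psmd9 and Psmd11. Psmc1 alone rose (1 of 41, 2.44%), beside 10.6% of all genes. The members' median log2 fold change was -0.094, and that of all tested genes was -0.12, so the share that fell and the median were near those of the transcriptome. Every Alc library lay below every Ctrl library for 4 members, Psmc2, Psmd4, Psmd6 and Psmd11 (9.61% of all genes), and above for Psmc1 (6.18% of all genes). Without Alc 5 the counts were 4 lower and 0 higher, beside 1725 and 846 of the 10959 genes tested. The full fit called 2497 and 1157 of all genes. The members' count was 6 lower without Ctrl 2 (1984 of all genes) or without Alc 2 (1947). It was 7 lower without Ctrl 4 (1978) or without Alc 1 (1811). Without Ctrl 5, 14 members were lower and 3 higher, beside 3382 and 1133 of all genes. Without Ctrl 1 and Ctrl 5 together, 8 were lower and 1 higher, beside 2571 and 1114.

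In Alc UA against the same Ctrl libraries, 14 of 41 members (34.1%) fell, beside 32.1% of all genes. They were Psma1, Psma3, Psma4, Psmb2, Psmb3, Psmb5, Psmb6, Psmc2, Psmc4, Psmc5, Psmd4, Psmd6, Psmd11 and Psme1. Psmc1, Psmd2, Psmd13 and Psme4 rose (4 of 41, 9.76%), beside 10.5% of all genes. The members' median was -0.13, beside -0.16 for all genes, so shares and median were again near those of all genes. The groups did not overlap for 8 members that were lower (Psma3, Psmb2, Psmb3, Psmb5, Psmc2, Psmc4, Psmd4 and Psmd6, beside 14.7% of all genes) and for Psmc1, which was higher (beside 5.48%). Without Alc UA 5 the count that fell was 9, beside 2793 of the 10959 genes tested, where the full fit gave 3521. Without Ctrl 1 and Ctrl 5 together 12 fell and 4 rose, beside 3507 and 1068 of all genes.

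**Figure D2:**
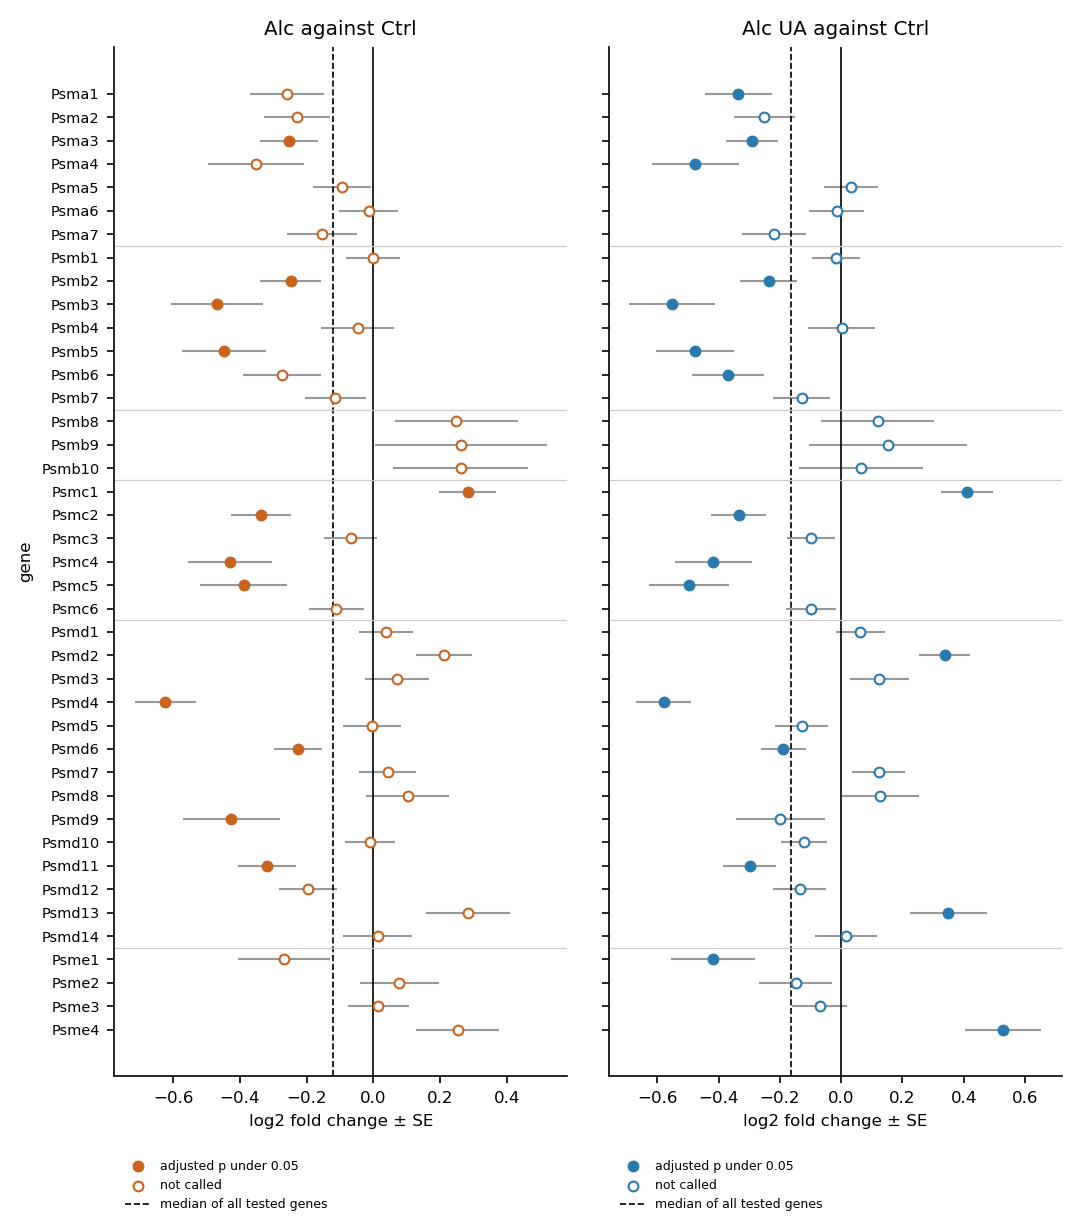
Log2 fold change of FPKM + 1 for each tested proteasome gene in Alc against Ctrl and in Alc UA against Ctrl, with SE bars, and a dashed line at the median of all tested genes (-0.12 and -0.16). Psmd4 lies lowest at -0.62 and -0.58, and Psmc1 lies at 0.28 and 0.41, above the line, while the ATPases Psmc2, Psmc4 and Psmc5 lie below it. The same Ctrl libraries enter both panels.

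How many members were called lower or higher turned on how the libraries were scaled. The median of all genes was shifted by -0.12 in Alc and -0.16 in Alc UA on the deposited scale. With quantile normalization 8 members were lower and 2 higher in Alc against Ctrl, beside 18.5% and 18.7% of all genes, and 10 were lower and 5 higher in Alc UA against Ctrl, beside 22.2% and 22.1%. With median-of-ratios size factors the balance turned to 3 lower and 5 higher in Alc (15.3% and 20.1% of all genes) and 2 lower and 8 higher in Alc UA (18.5% and 25%). When all libraries were given equal sums it was 1 lower and 3 higher in Alc (11.8% and 14.6% of all genes) and 6 lower and 4 higher in Alc UA (23.2% and 12%). With library weights, on the deposited scale, 20 were lower and 4 higher in Alc (36.9% and 16.6% of all genes) and 17 and 4 in Alc UA (37.1% and 14.6%). The members' median in Alc against Ctrl was -0.011, 0.073 and 0.043 with the first 3 of these scalings, while that of all genes was -0.0019, 0.020 and -0.0063, so a common direction of the family was not stable. Psmd4 fell and Psmc1 rose in Alc under the deposited scale and those 3 scalings alike. In Alc UA, Psmd4 and Psmb3 fell, and Psmc1, Psmd2, Psmd13 and Psme4 rose, under all 4. Calls given from here on are on the deposited scale, and a call of a named subunit or partner gene that another scaling ended or added is given beside it.

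**Figure D3:**
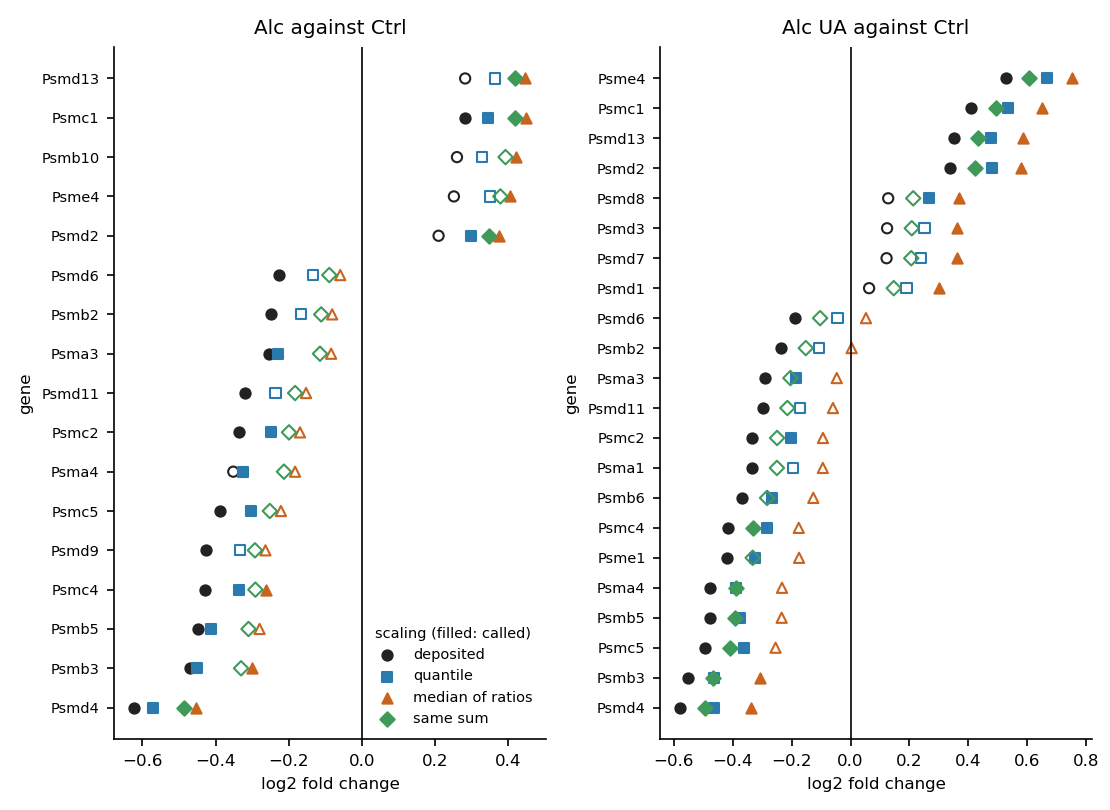
Log2 fold change of proteasome genes against Ctrl under 4 scalings of the libraries (deposited FPKM, quantile normalization, median-of-ratios size factors and equal sums), with filled points for genes called by limma at an adjusted p under 0.05. Points shift upward together when the libraries are rescaled, Psmd4 stays lower and filled and Psmc1 stays higher and filled in every panel.

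The alpha-ring genes that were called were all lower. In Alc against Ctrl 1 of the 7 tested fell (Psma3), which is 14.3%, beside 22.8% of all genes tested. In Alc UA 3 fell (Psma1, Psma3 and Psma4), which is 42.9%, beside 32.1%. The medians were -0.23 and -0.25. Psma3, an outer-ring subunit and the most abundant alpha gene, was at 140.2, 136, 116, 128 and 125 FPKM in Ctrl, 96.7, 106, 123, 112 and 103 FPKM in Alc, and 107, 108, 105, 113 and 94.3 FPKM in Alc UA. All 5 Alc UA libraries and 4 of 5 Alc libraries lay below every Ctrl library. On the log2 scale it differed from Ctrl by -0.25 ± 0.086 in Alc (adjusted p = 0.033) and -0.29 ± 0.086 in Alc UA (adjusted p = 0.014). The call in Alc was lost on leaving out Ctrl 1, 2 or 4 or Alc 1, 2 or 5 (adjusted p up to 0.088), and that in Alc UA was kept without each library in turn. The changes with median-of-ratios size factors were -0.084 (adjusted p = 0.51) and -0.047 (adjusted p = 0.71), and with equal sums -0.11 (adjusted p = 0.35) and -0.20 (adjusted p = 0.079), so neither was called by either of these.

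Psma4, another alpha subunit, was at 161, 120.3, 98.3, 127 and 90.4 FPKM in Ctrl, 80.03, 87.6, 103, 102 and 86.3 FPKM in Alc, and 82.8, 78.7, 97.4, 93.2 and 69.8 FPKM in Alc UA. Ctrl 1 was the highest library, and both alcohol groups overlapped Ctrl. The log2 difference from Ctrl was -0.35 ± 0.14 in Alc (adjusted p = 0.069) and -0.48 ± 0.14 in Alc UA (adjusted p = 0.015), so only the second passed the test. With quantile normalization the change in Alc passed as well, at -0.33 (adjusted p = 0.039), and with median-of-ratios size factors that in Alc UA did not, at -0.23 (adjusted p = 0.10). The difference between the alcohol groups themselves, -0.12 ± 0.14, did not pass (adjusted p = 0.90). Psma5 was at 54.7, 59.8, 59.8, 61.7 and 73.9 FPKM in Ctrl, 53.8, 55.6, 66.1, 60.1 and 53.96 FPKM in Alc, and 67.6, 61.5, 61.2, 63.8 and 61.7 FPKM in Alc UA. The 3 groups overlapped and no difference passed under any of the 4 scalings, with deposited values of -0.094 ± 0.088 in Alc (adjusted p = 0.43) and 0.032 ± 0.088 in Alc UA (adjusted p = 0.79).

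Among the other alpha genes, Psma1 was at 63.7 ± 8.02 FPKM in Ctrl, 52.98 ± 6.11 in Alc and 50.3 ± 6.32 in Alc UA, and its log2 fold change in Alc UA, -0.34 ± 0.11, passed the test (adjusted p = 0.024), though not without Ctrl 1, Ctrl 4 or Alc UA 5 (adjusted p up to 0.067), nor under the other 3 scalings (adjusted p = 0.085 to 0.50). Psma2 was at 81.2 ± 8.64 FPKM in Ctrl, 69.2 ± 8.73 in Alc and 67.9 ± 4.78 in Alc UA. Psma7 was at 102 ± 7.42 FPKM in Ctrl, 91.6 ± 9.60 in Alc and 87.9 ± 12.2 in Alc UA. Neither passed a test under any of the 4 scalings. Psma6 had the closest group means of the alpha genes, at 105 ± 5.99 FPKM in Ctrl, 104 ± 10.9 in Alc and 104 ± 8.25 in Alc UA. Psma8, which replaces an alpha subunit in the testis, was at 0.446 ± 0.260 FPKM in Ctrl, 0.464 ± 0.332 in Alc and 0.352 ± 0.0597 in Alc UA, and exceeded 1 FPKM in 1 Alc library.

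Of the 7 constitutive beta genes, 3 fell in Alc (Psmb2, Psmb3 and Psmb5) and 4 in Alc UA (these and Psmb6), with a median of -0.25 in Alc and -0.24 in Alc UA. That is 42.9% and 57.1%, beside 22.8% and 32.1% of all genes tested. Psmb5 carries the chymotrypsin-like site, the target of bortezomib. It was at 118, 123, 107, 138 and 106 FPKM in Ctrl, 72.8, 77.1, 99.4, 108 and 78.01 FPKM in Alc, and 74.8, 88.01, 95.7, 93.97 and 71.97 FPKM in Alc UA. Every Alc UA library and 4 of 5 Alc libraries lay below the lowest Ctrl library. Against Ctrl this was a log2 fold change of -0.45 ± 0.13 in Alc (adjusted p = 0.014) and -0.48 ± 0.13 in Alc UA (adjusted p = 0.0074), and both calls were kept when each library was left out in turn. With median-of-ratios size factors they were -0.28 (adjusted p = 0.059) and -0.23 (adjusted p = 0.095), and with equal sums -0.31 (adjusted p = 0.075) and -0.39 (adjusted p = 0.023).

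Psmb6, which carries the caspase-like site, was at 116, 110.2, 97.01, 130.1 and 95.6 FPKM in Ctrl, 77.1, 85.5, 105, 102 and 83.7 FPKM in Alc, and 72.4, 85.6, 95.8, 94.03 and 75.7 FPKM in Alc UA. The highest values were in Ctrl and the groups overlapped. Its log2 fold change was -0.27 ± 0.12 in Alc (adjusted p = 0.082) and -0.37 ± 0.12 in Alc UA (adjusted p = 0.020), the latter not passing without Ctrl 4, Alc UA 1 or Alc UA 5 (adjusted p up to 0.057), with median-of-ratios size factors, at -0.13 (adjusted p = 0.34), or with equal sums, at -0.28 (adjusted p = 0.058). Psmb7, with the trypsin-like site, was at 147, 168, 135, 153 and 163 FPKM in Ctrl, 123, 131, 151, 156 and 147 FPKM in Alc, and 142, 137, 147, 149 and 125 FPKM in Alc UA. It had the highest level of any member in every group, and the groups overlapped. On the log2 scale it differed from Ctrl by -0.11 ± 0.093 in Alc (adjusted p = 0.36) and -0.13 ± 0.093 in Alc UA (adjusted p = 0.28). Of the 3 catalytic genes, Psmb5 fell in both alcohol groups, Psmb6 in Alc UA and Psmb7 in neither. Whether these changes differ from each other was not tested.

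Psmb3, a structural beta subunit, was at 151, 125, 109.6, 139 and 104 FPKM in Ctrl, 77.9, 82.4, 111, 104 and 77.95 FPKM in Alc, and 73.8, 82.5, 104, 93.6 and 73.2 FPKM in Alc UA. The highest Alc UA library lay just under the lowest Ctrl library, and 3 of 5 Alc libraries lay below every Ctrl library. The log2 difference from Ctrl was -0.47 ± 0.14 in Alc (adjusted p = 0.018, or 0.052 without Alc 5) and -0.55 ± 0.14 in Alc UA (adjusted p = 0.0057). With equal sums the change in Alc was -0.33 and not called (adjusted p = 0.071). Psmb2, also structural, was at 64.9, 54.2, 52.5, 60.8 and 50.8 FPKM in Ctrl, 44.1, 46.6, 52.01, 52.99 and 41.9 FPKM in Alc, and 46.3, 49.7, 49.9, 50.4 and 42.6 FPKM in Alc UA. Alc UA lay wholly below Ctrl, and Alc overlapped it. Against Ctrl this was a log2 fold change of -0.25 ± 0.093 in Alc (adjusted p = 0.0497) and -0.24 ± 0.093 in Alc UA (adjusted p = 0.0497), at the edge of the threshold in both and past it under no other scaling (adjusted p = 0.060 to 0.44 in Alc and 0.20 to 0.97 in Alc UA). The call was kept in 5 and 4 of 15 fits with 1 library left out, with adjusted p up to 0.13 and 0.12, and the direction in Alc UA turned with median-of-ratios size factors. Psmb1 was at 92.5 ± 7.99 FPKM in Ctrl, 92.3 ± 6.21 in Alc and 91.2 ± 3.38 in Alc UA. Psmb4 was at 125 ± 17.7 FPKM in Ctrl, 120.2 ± 11.3 in Alc and 124 ± 12.4 in Alc UA. For these structural subunits no difference passed under any of the 4 scalings.

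The ATPases of the base split in direction. Of the 6, 3 fell in both alcohol groups (Psmc2, Psmc4 and Psmc5) and Psmc1 rose in both, although the encoded proteins sit together in 1 ring. That is 50% lower in each, beside 22.8% of all genes in Alc and 32.1% in Alc UA, and 16.7% higher, beside 10.6% and 10.5%. Whether the shares of a subcomplex differ from those of all genes was not tested. Psmc1 was at 57.1, 69.1, 68.8, 66.4 and 76.4 FPKM in Ctrl, 82.7, 76.8, 79.6, 84.9 and 86.7 FPKM in Alc, and 95.4, 89.7, 84.2, 97.6 and 82.5 FPKM in Alc UA. Every alcohol library lay above every Ctrl library. Its log2 fold change was 0.28 ± 0.085 in Alc (adjusted p = 0.020, or 0.053 without Alc 5) and 0.41 ± 0.085 in Alc UA (adjusted p = 0.0018). It was the ATPase with the highest level in Alc and Alc UA, while in Ctrl Psmc3 was.

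Psmc2 was at 61.2, 63.5, 59.3, 60.3 and 58.4 FPKM in Ctrl, 47.2, 44.2, 52.1, 55.3 and 41.2 FPKM in Alc, and 46.95, 46.5, 48.1, 55.5 and 42.8 FPKM in Alc UA. Neither alcohol group reached the lowest Ctrl library. On the log2 scale it differed from Ctrl by -0.34 ± 0.090 in Alc (adjusted p = 0.011) and -0.33 ± 0.090 in Alc UA (adjusted p = 0.0083), kept without each library in turn, but -0.17 (adjusted p = 0.16) and -0.094 (adjusted p = 0.42) with median-of-ratios size factors and -0.20 (adjusted p = 0.15) and -0.25 (adjusted p = 0.060) with equal sums. Psmc4 was at 84.4, 67.2, 58.02, 72.7 and 56.9 FPKM in Ctrl, 46.3, 47.4, 57.2, 57.4 and 41.7 FPKM in Alc, and 48.1, 53.9, 55.9, 52.7 and 40.95 FPKM in Alc UA. Alc UA lay wholly below Ctrl, and in Alc the highest library passed the lowest Ctrl library. The log2 difference from Ctrl was -0.43 ± 0.13 in Alc (adjusted p = 0.018, or 0.053 without Alc 5) and -0.42 ± 0.13 in Alc UA (adjusted p = 0.015). It was not called in Alc with equal sums, at -0.29 (adjusted p = 0.079), or in Alc UA with median-of-ratios size factors, at -0.18 (adjusted p = 0.16).

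Psmc5, singled out after its values were seen because it was called in both comparisons, was at 68.3 ± 10.99 FPKM in Ctrl, 51.8 ± 7.37 in Alc and 48.03 ± 6.73 in Alc UA. Against Ctrl this was a log2 fold change of -0.39 ± 0.13 in Alc (adjusted p = 0.032) and -0.50 ± 0.13 in Alc UA (adjusted p = 0.0073). In Alc it was no longer called on leaving out any 1 of the same 6 libraries as for Psma3 (adjusted p up to 0.092). Neither call held with median-of-ratios size factors, at -0.22 (adjusted p = 0.13) and -0.25 (adjusted p = 0.070), and with equal sums that in Alc was lost, at -0.25 (adjusted p = 0.14). Psmc3 was at 74.2 ± 2.35 FPKM in Ctrl, 70.8 ± 4.37 in Alc and 69.4 ± 6.20 in Alc UA. Psmc6 was at 54.1 ± 4.16 FPKM in Ctrl, 49.99 ± 3.75 in Alc and 50.5 ± 4.14 in Alc UA. Neither of these ATPases passed a test under any of the 4 scalings.

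The 14 non-ATPase genes held both the largest fall and several members that were higher. In Alc 4 fell (Psmd4, Psmd6, Psmd9 and Psmd11) and 0 rose, and in Alc UA 3 fell (Psmd4, Psmd6 and Psmd11) and 2 rose (Psmd2 and Psmd13). The shares that fell were 28.6% and 21.4%, beside 22.8% and 32.1% of all genes tested. The share that rose in Alc UA was 14.3%, beside 10.5%. Psmd4, a ubiquitin receptor of the regulatory particle, was at 104, 103, 101, 127 and 107 FPKM in Ctrl, 72.1, 66.9, 75.6, 73.2 and 61.7 FPKM in Alc, and 66.5, 70.5, 79.7, 78.6 and 65.4 FPKM in Alc UA. No alcohol library exceeded 79.7 FPKM, and no Ctrl library was under 101. Its log2 fold change was -0.62 ± 0.091 in Alc (adjusted p = 2.8e-04) and -0.58 ± 0.091 in Alc UA (adjusted p = 2.9e-04). It was the most abundant non-ATPase gene in each group, and its call was kept under each of the 4 scalings, the smallest change being -0.45 in Alc and -0.34 in Alc UA with median-of-ratios size factors (adjusted p = 0.0053 and 0.021).

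Psmd11, a lid subunit, was at 42.9, 47.9, 45.6, 39.97 and 49.9 FPKM in Ctrl, 36.1, 32.9, 36.3, 39.5 and 35.4 FPKM in Alc, and 36.6, 36.8, 33.01, 42.96 and 33.8 FPKM in Alc UA. Alc lay wholly below Ctrl, and in Alc UA 4 of 5 libraries did. On the log2 scale it differed from Ctrl by -0.32 ± 0.088 in Alc (adjusted p = 0.013) and -0.30 ± 0.088 in Alc UA (adjusted p = 0.013), kept without each library in turn, while under each other scaling neither passed (adjusted p = 0.055 to 0.30 in Alc and 0.13 to 0.69 in Alc UA). Psmd9, an assembly chaperone of the base, was at 16.1, 23.9, 23.7, 31.5 and 22.4 FPKM in Ctrl, 17.3, 17.9, 15.6, 16.4 and 17.3 FPKM in Alc, and 21.5, 25.4, 20.6, 16.8 and 16.5 FPKM in Alc UA. The Ctrl libraries spread widely and all 3 groups overlapped. The log2 difference from Ctrl was -0.43 ± 0.14 in Alc (adjusted p = 0.034) and -0.20 ± 0.14 in Alc UA (adjusted p = 0.28). The call in Alc was lost on leaving out Ctrl 2, 3 or 4 or any of the 5 Alc libraries (adjusted p up to 0.092), and under each other scaling (adjusted p = 0.13 to 0.25).

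The next genes were singled out after their values were seen. Psmd6, a lid subunit, was at 57.04 ± 2.54 FPKM in Ctrl, 48.7 ± 3.01 in Alc and 49.99 ± 3.30 in Alc UA, with no overlap between Ctrl and either alcohol group. Against Ctrl this was a log2 fold change of -0.23 ± 0.073 in Alc (adjusted p = 0.027) and -0.19 ± 0.073 in Alc UA (adjusted p = 0.048). The call in Alc was lost without Ctrl 2, Alc 2 or Alc 5 (adjusted p up to 0.080), that in Alc UA was kept in 2 of 15 such fits (adjusted p up to 0.12), and its direction in Alc UA turned with median-of-ratios size factors. Under no other scaling was it called (adjusted p = 0.14 to 0.64 in Alc and 0.34 to 0.66 in Alc UA). Psmd2, the scaffold of the base that also binds ubiquitin-like domains, was at 41.9, 45.1, 43.5, 41.6 and 50.6 FPKM in Ctrl, 48.8, 49.4, 49.8, 54.3 and 56.02 FPKM in Alc, and 57.4, 59.7, 50.4, 63.2 and 52.4 FPKM in Alc UA. Alc UA stood highest, with 4 of 5 libraries above every Ctrl library. Its log2 fold change was 0.21 ± 0.084 in Alc (adjusted p = 0.065) and 0.34 ± 0.084 in Alc UA (adjusted p = 0.0053). With the other 3 scalings the change in Alc passed as well (0.30 to 0.38, adjusted p = 0.019 to 0.022). Psmd13, a lid subunit, was at 19.8, 32.8, 30.7, 29.8 and 36.03 FPKM in Ctrl, 34.5, 32.02, 34.9, 40.8 and 37.6 FPKM in Alc, and 37.7, 40.8, 35.6, 37.2 and 36.8 FPKM in Alc UA. Ctrl 1 was the lowest library of all, and 4 of 5 Alc UA libraries lay above every Ctrl library. On the log2 scale it differed from Ctrl by 0.28 ± 0.13 in Alc (adjusted p = 0.091) and 0.35 ± 0.13 in Alc UA (adjusted p = 0.034), the latter lost on leaving out Ctrl 1 or 4, or Alc UA 1, 2, 4 or 5 (adjusted p up to 0.072). In Alc it was called higher with median-of-ratios size factors, at 0.45 (adjusted p = 0.048), and with equal sums, at 0.42 (adjusted p = 0.038).

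The other 8 non-ATPase genes passed no test on the deposited scale. In Alc UA against Ctrl 4 of them were called higher with median-of-ratios size factors, namely Psmd1 at 0.30 (adjusted p = 0.022), Psmd3 at 0.36 (adjusted p = 0.034), Psmd7 at 0.36 (adjusted p = 0.016) and Psmd8 at 0.37 (adjusted p = 0.012). Psmd8 was also called with quantile normalization, at 0.27 (adjusted p = 0.039). Psmd14, the deubiquitinase of the lid, was at 26.6 ± 2.55 FPKM in Ctrl, 26.9 ± 3.44 in Alc and 26.97 ± 2.94 in Alc UA. Psmd1, which shares the scaffold role in the base, was at 32.2 ± 1.67 FPKM in Ctrl, 33.2 ± 3.56 in Alc and 33.7 ± 1.69 in Alc UA. The lid subunits Psmd3 and Psmd7 were at 34.2 ± 3.71 FPKM in Ctrl, 35.9 ± 2.28 in Alc and 37.4 ± 4.77 in Alc UA and at 35.1 ± 3.75 FPKM in Ctrl, 36.1 ± 2.47 in Alc and 38.2 ± 2.83 in Alc UA, respectively. The libraries of the 3 groups overlapped for both. The lid subunit Psmd12 was at 52.7 ± 4.03 FPKM in Ctrl, 45.9 ± 3.06 in Alc and 48.02 ± 5.00 in Alc UA. Psmd8, another lid subunit, was at 58.04 ± 3.25 FPKM in Ctrl, 63.2 ± 13.1 in Alc and 64.03 ± 10.3 in Alc UA. The assembly chaperones Psmd5 and Psmd10 were the lowest of the regulatory particle genes, Psmd5 at 11.5 ± 1.07 FPKM in Ctrl, 11.5 ± 1.25 in Alc and 10.4 ± 0.806 in Alc UA and Psmd10 at 7.66 ± 0.619 FPKM in Ctrl, 7.60 ± 0.579 in Alc and 6.95 ± 0.348 in Alc UA.

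**Figure D4:**
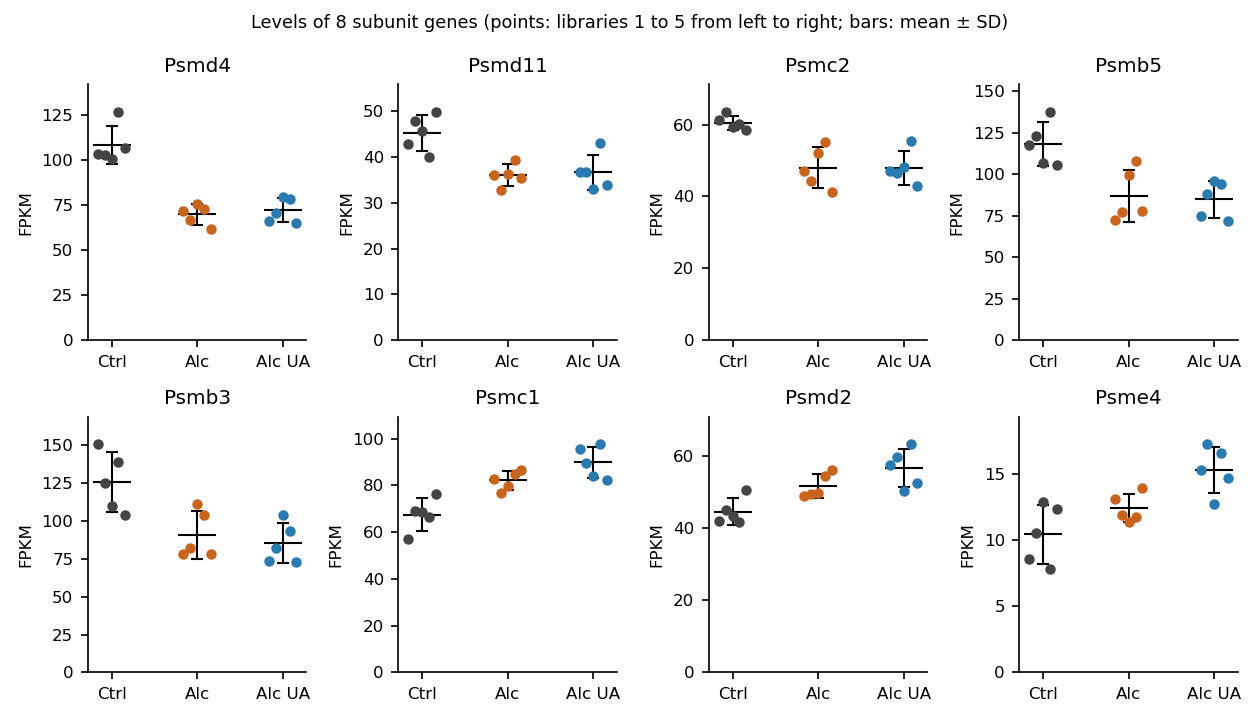
FPKM of 8 proteasome genes in each library, with group means and SD bars. For Psmd4 the Ctrl points (101 to 127 FPKM) lie above all alcohol points (61.7 to 79.7), for Psmc1 they lie below all of them, and for Psme4 the Alc UA points (12.8 to 17.3) lie mostly above those of Ctrl (7.80 to 12.9).

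The activators did not move together. Psme4, a large single-chain cap also called PA200, was at 8.59, 10.6, 12.9, 7.80 and 12.4 FPKM in Ctrl, 13.2, 11.96, 11.4, 11.8 and 14.01 FPKM in Alc, and 15.3, 17.3, 12.8, 16.6 and 14.7 FPKM in Alc UA. In Alc UA 4 of 5 libraries lay above every Ctrl library, and in Alc 2 did. The log2 difference from Ctrl was 0.25 ± 0.12 in Alc (adjusted p = 0.13) and 0.53 ± 0.12 in Alc UA (adjusted p = 0.0038), the latter kept under each scaling and without each library in turn. The change in Alc passed too with median-of-ratios size factors, at 0.41 (adjusted p = 0.048). Psme1 and Psme2 form the interferon-inducible PA28 cap. Psme1 was at 140.2, 136, 104, 111 and 86.6 FPKM in Ctrl, 75.9, 87, 105, 117 and 91.4 FPKM in Alc, and 88.2, 79.02, 92.1, 89.2 and 76.5 FPKM in Alc UA. Ctrl 1 and Ctrl 2 were among the highest libraries and the groups overlapped. Against Ctrl this was a log2 fold change of -0.27 ± 0.14 in Alc (adjusted p = 0.14) and -0.42 ± 0.14 in Alc UA (adjusted p = 0.023), and the second was lost without Ctrl 1, Ctrl 2, Alc UA 2 or Alc UA 5 (adjusted p up to 0.064), with median-of-ratios size factors, at -0.17 (adjusted p = 0.20), and with equal sums, at -0.33 (adjusted p = 0.063).

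Psme2, the partner of Psme1, was at 101, 98.9, 85.02, 84.8 and 78.5 FPKM in Ctrl, 80.5, 88, 112, 105 and 88.1 FPKM in Alc, and 83.3, 69.2, 93.6, 90.4 and 68.5 FPKM in Alc UA. The groups overlapped, and its log2 fold change was 0.077 ± 0.12 in Alc (adjusted p = 0.64) and -0.15 ± 0.12 in Alc UA (adjusted p = 0.33). Psme3, which forms the nuclear PA28 cap, was at 16.8, 17.8, 19.3, 16.5 and 17.4 FPKM in Ctrl, 17.7, 16.2, 17.8, 18.9 and 18 FPKM in Alc, and 14.2, 18.3, 14.9, 19.98 and 16.5 FPKM in Alc UA. No difference passed, with 0.015 ± 0.090 in Alc (adjusted p = 0.91) and -0.069 ± 0.090 in Alc UA (adjusted p = 0.56).

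The immunoproteasome genes ran at lower levels than their constitutive counterparts and passed no test on the deposited scale, while most of their Alc libraries lay at or above the Ctrl median. Psmb8, counterpart of Psmb5, was at 33.95, 17.95, 24.1, 24.04 and 18.1 FPKM in Ctrl, 26.1, 24.4, 34.5, 27.9 and 25.5 FPKM in Alc, and 35.8, 27.5, 24.95, 23.3 and 17.2 FPKM in Alc UA. Psmb9, counterpart of Psmb6, was at 34.7, 16.8, 22.9, 29.01 and 14.9 FPKM in Ctrl, 18.4, 25.8, 37.1, 35.02 and 24.2 FPKM in Alc, and 40.4, 22.8, 31.5, 19.4 and 17.97 FPKM in Alc UA. Psmb10, counterpart of Psmb7, was at 25.02, 15.9, 18.1, 18.7 and 9.87 FPKM in Ctrl, 18.4, 17.8, 24.6, 23.7 and 18.3 FPKM in Alc, and 22.3, 17.04, 17.4, 21.7 and 11.9 FPKM in Alc UA. For each gene Ctrl 1 was the highest Ctrl library and the 3 groups overlapped. The log2 fold changes in Alc were 0.25 ± 0.18 for Psmb8 (adjusted p = 0.31), 0.26 ± 0.26 for Psmb9 (adjusted p = 0.45) and 0.26 ± 0.20 for Psmb10 (adjusted p = 0.33). In Alc UA against Ctrl they were 0.12 ± 0.18, 0.15 ± 0.26 and 0.066 ± 0.20 (adjusted p = 0.63, 0.66 and 0.81). Psmb10 was called higher in Alc with median-of-ratios size factors, at 0.42 (adjusted p = 0.0499), where Psmb8 was at 0.41 (adjusted p = 0.058) and Psmb9 at 0.43 (adjusted p = 0.16). Psmb11, of the thymus, was at 0.278 ± 0.0920 FPKM in Ctrl, 0.242 ± 0.166 in Alc and 0.224 ± 0.0594 in Alc UA.

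Since each immunoproteasome gene replaces a named subunit, its level was also set against that subunit within a library, which dividing a library by a single factor does not change before the pseudocount is added. The level of Psmb8 as a percentage of that of Psmb5 was 28.8, 14.5, 22.6, 17.5 and 17.1% in Ctrl, 35.9, 31.6, 34.7, 25.8 and 32.7% in Alc, and 47.9, 31.2, 26.1, 24.8 and 23.9% in Alc UA. Every Alc library lay above the Ctrl mean of 20.1 ± 5.66%, and Ctrl 1 lay within the Alc range. The log2 ratio was higher by 0.70 ± 0.19 in Alc (exact permutation test, two-sided, p = 0.016, or 0.14 adjusted over 9 such comparisons) and by 0.60 ± 0.24 in Alc UA (exact p = 0.048, adjusted 0.14). Neither passed after adjustment, and with 252 assignments the smallest p possible was 0.0079. This ratio also moves with the fall of Psmb5, and a ratio shows unequal change of the pair, not which of them changed.

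For Psmb9 relative to Psmb6 the percentages were 29.97, 15.3, 23.6, 22.3 and 15.6% in Ctrl, 23.9, 30.2, 35.3, 34.4 and 28.9% in Alc, and 55.9, 26.7, 32.9, 20.6 and 23.7% in Alc UA. The difference in Alc was 0.54 ± 0.20 (exact permutation p = 0.032, adjusted 0.14), and that in Alc UA was 0.52 ± 0.30 (exact p = 0.12, adjusted 0.27). For Psmb10 relative to Psmb7 the percentages were 16.97, 9.44, 13.5, 12.2 and 6.06% in Ctrl, 15.04, 13.6, 16.2, 15.1 and 12.4% in Alc, and 15.7, 12.4, 11.8, 14.6 and 9.52% in Alc UA. The difference was 0.37 ± 0.25 in Alc (exact permutation p = 0.19, adjusted 0.33) and 0.19 ± 0.27 in Alc UA (exact p = 0.53, adjusted 0.68). All 5 Alc libraries stood above the Ctrl mean for each of the 3 pairs, and the groups overlapped for each.

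**Figure D5:**
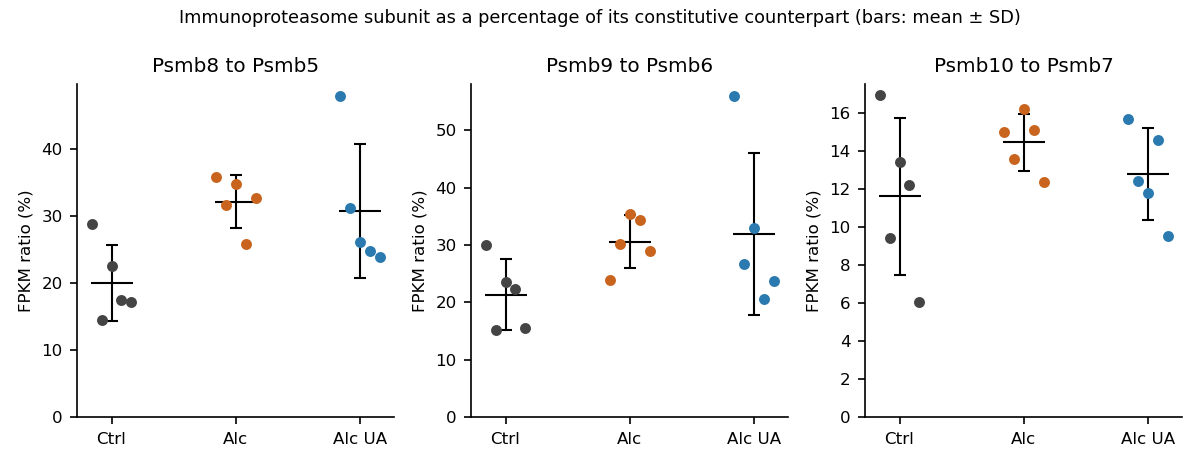
Level of Psmb8, Psmb9 and Psmb10 as a percentage of that of Psmb5, Psmb6 and Psmb7 in each library, with group means and SD bars. The Psmb8 percentages average 20.1% in Ctrl, 32.2% in Alc and 30.8% in Alc UA, Ctrl 1 and Alc UA 1 are the highest of their groups, and the groups overlap for each pair.

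Leukocytes express immunoproteasome genes without induction, so their markers are given beside these values. Summed over 3 genes shared by all leukocytes the level was 6.98 to 58.2 FPKM in Ctrl, 10.2 to 22.5 in Alc and 11.8 to 42.5 in Alc UA, and 0 of 3 were called in Alc by limma, with 0 at an unadjusted p under 0.05. T and NK cell markers (6 genes) summed to 4.11 to 37.4 FPKM in Ctrl, 2.73 to 9.32 in Alc and 2.86 to 9.60 in Alc UA, and the 3 that were tested were lower in Alc. B and plasma cell markers summed to 5.93 to 17.6, 1.39 to 5.84 and 2.16 to 11.2 FPKM, with 3 of 3 tested lower. Neutrophil markers summed to 5.96 to 45.9, 5.36 to 11.6 and 7.35 to 19.4 FPKM, with 1 of 3 tested lower (S100a8, or 0 with equal sums) and Ly6g under 1 FPKM in all libraries. Kupffer cell and macrophage markers summed to 32.3 to 195, 94.4 to 168 and 108 to 463 FPKM, with 7 of 7 positive in Alc and 0 called by limma, or 0 at an unadjusted p under 0.05. In Alc UA against Ctrl 1 of these 7 was called higher, Cd5l at 1.22 ± 0.46 (adjusted p = 0.044 from limma). With quantile normalization or median-of-ratios size factors 3 of the 7 were. Of the other lists in Alc UA, 2 T and NK cell and 3 B and plasma cell markers were called lower, and 0 of neutrophils or all leukocytes. Under each other scaling 0 T and NK cell markers and 3 B and plasma cell markers were lower in Alc UA. The part of these cells in the immunoproteasome levels was not tested.

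Of 16 tested genes of interferon-gamma signalling, the inducer of Psmb8, Psmb9 and Psmb10, 0 rose and 2 fell in Alc (12.5%). In Alc UA 0 rose and 3 fell (18.8%). Over all genes tested, 10.6% rose and 22.8% fell in Alc, and 10.5% rose and 32.1% fell in Alc UA. The shares of the list that fell were below these. The other 3 scalings gave 0 higher in Alc, and 1 lower after quantile normalization, 1 by median-of-ratios size factors and 0 with equal sums. In Alc UA quantile normalization gave 1 higher and 2 lower, median-of-ratios size factors 2 higher and 1 lower, and equal sums 0 higher and 2 lower. Cxcl10, an interferon-induced chemokine, fell by 1.02 ± 0.36 on the log2 scale in Alc (adjusted p = 0.040) and Irf9, a subunit of an interferon-activated transcription factor, changed by -0.42 ± 0.16 (adjusted p = 0.049). In Alc, Cxcl10 was not called with equal sums (adjusted p = 0.071), and Irf9 was called under no other scaling (adjusted p = 0.098 to 0.25). Irf1, a transcription factor that drives immunoproteasome genes, changed by -0.73 ± 0.23 in Alc UA against Ctrl (adjusted p = 0.020, or 0.075 with median-of-ratios size factors). Of 12 genes of antigen processing, which uses the peptides the proteasome makes, 3 rose and 0 fell in Alc (4 and 0 under each other scaling), and 4 rose and 2 fell in Alc UA (4 and 2 with quantile normalization, 4 and 1 with the other 2). On the deposited scale that is 25% up in Alc, and 33.3% up and 16.7% down in Alc UA. Erap1, which trims peptides in the endoplasmic reticulum, rose by 0.67 ± 0.13 in Alc (adjusted p = 0.0015), and Tapbpl, a peptide editor, by 0.36 ± 0.11 (adjusted p = 0.021). B2m, the light chain of MHC class I, changed by -0.81 ± 0.22 in Alc UA against Ctrl (adjusted p = 0.0095). Tap1, the peptide transporter encoded beside Psmb9, was at 13.2 ± 1.47 FPKM in Ctrl, 12.6 ± 2.60 in Alc and 14.2 ± 5.82 in Alc UA, with no difference from Ctrl called under any of the 4 scalings (-0.078 ± 0.19 in Alc, adjusted p = 0.78).

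Between the alcohol groups, which differ in UA, 0 of 41 proteasome genes were called by limma, beside 0.00912% of all genes, which is 1 gene. At an unadjusted p under 0.05 there was 1 member, Psme4, beside 6.06% of all genes, and 0 members had groups without overlap, beside 1.18%. The count of called members was 0 under every alternative fit, with 0 to 2 members at an unadjusted p under 0.05. Log2 fold changes ran from -0.23 for Psme2 to 0.28 for Psme4, with an adjusted p of 0.82 from limma for each. Psmd9 differed by 0.23 ± 0.14 (adjusted p = 0.83), Psmd4 by 0.044 ± 0.091 (adjusted p = 0.95) and Psmb5 by -0.028 ± 0.13 (adjusted p = 0.98). The ratio of Psmb8 to Psmb5 differed by -0.10 ± 0.20 (exact permutation p = 0.64), that of Psmb9 to Psmb6 by -0.013 ± 0.26 (exact p = 0.96) and that of Psmb10 to Psmb7 by -0.18 ± 0.13 (exact p = 0.22).

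Genes that build, assist or control the proteasome were followed in lists of known partners. Of 6 tested assembly chaperones and the inhibitor Psmf1, 2 fell in Alc (33.3%, beside 22.8% of all genes tested). In Alc UA 4 fell (66.7%, beside 32.1%), and 0 rose in either. Quantile normalization gave 1 higher and 2 lower in Alc and 0 higher and 3 lower in Alc UA. By median-of-ratios size factors 1 was higher and 1 lower in Alc, and 0 higher and 1 lower in Alc UA. Equal sums gave 0 higher and 1 lower in Alc, and 0 higher and 3 lower in Alc UA. Psmg4, an assembly chaperone of the core, was at 13.1 ± 3.41 FPKM in Ctrl, 7.41 ± 1.60 in Alc and 7.49 ± 1.54 in Alc UA, a change of -0.73 ± 0.18 in Alc (adjusted p = 0.0072) and -0.72 ± 0.18 in Alc UA (adjusted p = 0.0057). Psmg2, another, changed by -0.42 ± 0.13 (adjusted p = 0.022) and -0.47 ± 0.13 (adjusted p = 0.011), and was called in neither with median-of-ratios size factors (adjusted p = 0.059 and 0.074) nor in Alc with equal sums (adjusted p = 0.094). Pomp, which completes core assembly, was at 138 ± 27.1 FPKM in Ctrl, 118 ± 13.8 in Alc and 105 ± 9.95 in Alc UA, with differences from Ctrl of -0.21 ± 0.13 in Alc (adjusted p = 0.23) and -0.37 ± 0.13 in Alc UA (adjusted p = 0.030), and the latter was no longer called with median-of-ratios size factors or equal sums. Psmf1 was at 10.04 ± 0.972 FPKM in Ctrl, 11.4 ± 1.39 in Alc and 9.89 ± 1.01 in Alc UA and passed no test on the deposited scale, where its difference from Ctrl was 0.16 ± 0.094 in Alc (adjusted p = 0.19). In Alc it was called higher with quantile normalization, at 0.26 (adjusted p = 0.032), and with median-of-ratios size factors, at 0.32 (adjusted p = 0.014).

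The list of NRF1 and its partners, which control subunit genes, had 4 of 15 up (26.7%) and 3 down (20%) in Alc, beside 10.6% and 22.8% of all genes tested. In Alc UA it had 6 up (40%) and 3 down (20%), beside 10.5% and 32.1%. With quantile normalization it had 5 up and 3 down in Alc and 8 up and 3 down in Alc UA, with median-of-ratios size factors 6 up and 3 down and 9 up and 2 down, and with equal sums 4 up and 2 down and 6 up and 3 down. Nfe2l1 itself was at 39.2 ± 4.90 FPKM in Ctrl, 41.95 ± 6.93 in Alc and 41.7 ± 6.73 in Alc UA and was not called (0.091 ± 0.13 in Alc, adjusted p = 0.60, and 0.084 ± 0.13 in Alc UA, adjusted p = 0.63), but with median-of-ratios size factors it was called higher in Alc UA, at 0.32 (adjusted p = 0.038). Syvn1, a ubiquitin ligase of the endoplasmic reticulum that keeps NRF1 low, changed by -0.56 ± 0.092 (adjusted p = 6.3e-04) and -0.69 ± 0.092 (adjusted p = 1.0e-04). Ufd1, a cofactor of the VCP segregase, changed by -0.44 ± 0.087 (adjusted p = 0.0019) and -0.53 ± 0.087 (adjusted p = 4.1e-04). Syvn1 and Ufd1 had the smallest p of the list, and both fell. Those called higher on the deposited scale were Maff, Ddi2, Sel1l and Vcp in both comparisons, and Ngly1 and Nploc4 in Alc UA. Their other scalings are given only in the counts above. Among 12 factors bound to the proteasome, 1 rose and 4 fell in Alc (8.33% and 33.3%), and 1 rose and 5 fell in Alc UA (8.33% and 41.7%). With quantile normalization these were 2 and 4 in Alc and 4 and 3 in Alc UA, with median-of-ratios size factors 2 and 1 and 5 and 2, and with equal sums 1 and 1 and 1 and 3. Akirin2, which carries proteasomes into the nucleus, changed by -0.61 ± 0.14 in Alc (adjusted p = 0.0053) and -0.75 ± 0.14 in Alc UA (adjusted p = 0.0010). Txnl1, a thioredoxin-like protein of the regulatory particle, changed by -0.36 ± 0.090 in Alc (adjusted p = 0.0077, or 0.095 with median-of-ratios size factors and 0.087 with equal sums), and Ube3c, a ubiquitin ligase on the proteasome, by 0.70 ± 0.15 in Alc UA (adjusted p = 0.0025).

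Of 6 shuttle factors, which bring ubiquitinated proteins to the proteasome, 0 rose and 1 fell in Alc on the deposited scale (16.7%, beside 22.8% of all genes tested). This was Ubqln2, at -0.43 ± 0.11 (adjusted p = 0.010, or 0.058 with equal sums), and in Alc UA Ubqln2 fell as well, at -0.44 ± 0.11 (adjusted p = 0.0064). None of 6 ubiquitin and ubiquitin-activating genes was called by limma in either comparison on the deposited scale. At an unadjusted p under 0.05 there were 0 and 2. With median-of-ratios size factors 1 was higher in each, and with quantile normalization 1 was higher in Alc UA. Of 9 genes of the COP9 signalosome, a relative of the lid, 0 rose and 1 fell in each (11.1%, beside 22.8% and 32.1% of all genes). This was Cops7b, at -0.52 ± 0.17 in Alc (adjusted p = 0.032) and -0.71 ± 0.17 in Alc UA (adjusted p = 0.0051). The call of Cops7b in Alc was lost under each other scaling (adjusted p = 0.064 to 0.10). With quantile normalization 2 of the 9 were higher and 0 lower in Alc, and 2 higher and 1 lower in Alc UA. With median-of-ratios size factors these were 4 and 0, and 5 and 1, and with equal sums 3 and 0, and 1 and 1. Over all genes 18.7%, 20.1% and 14.6% were higher and 18.5%, 15.3% and 11.8% lower in Alc, in the same order of scalings. In Alc UA 22.1%, 25% and 12% were higher and 22.2%, 18.5% and 23.2% lower. Of 8 genes of the CCT chaperonin, another large cytosolic complex, 0 were called by limma in either under any of the 4 scalings, with 4 and 2 at an unadjusted p under 0.05 on the deposited scale. No gene of these lists was called between Alc UA and Alc.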

How the data were processed

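RNA of 15 wild-type mouse livers, extracted with phenol and chloroform, was sequenced on an MGISEQ instrument (per the labels' protocols). Expression was deposited by the authors in a single table of FPKM, to 2 decimals, with 18510 rows, of which 223 were 0 in every library. The submitters' processing notes name, with no role for each, StringTie, DESeq, RSEM 1.2.8, HISAT2 2.1.0 and Bowtie2 2.2.5. The build, the annotation, the use of strand and the treatment of near-identical copies such as pseudogenes are not given in the sources used. FPKM values are not counts, so depth is unknown, and precision rests on the 5 libraries per group. Whether each library is a separate mouse is as the labels give it. Columns were matched to samples by the letter and number in their titles.

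Values were analysed as log2(FPKM + 1), which understates changes of weakly expressed genes. The 10959 genes with 1 FPKM or more in 5 or more of the 15 libraries entered 1 linear model of the 3 groups in limma 3.58.1 under R 4.3.3. It had 12 residual degrees of freedom, a variance prior with a mean trend, and Benjamini-Hochberg adjustment at 0.05 per comparison. The fit was tested on simulated data. Ratios of subunit pairs were compared with exact permutation tests over 252 assignments. The members, the 9 companion lists, the 10 marker lists and the tests were chosen with earlier results of these data known. Each member is given at least by its level. Library values and tests are given for the catalytic and immunoproteasome genes, the activators and, in each other subgroup, the members with the smallest p in Alc against Ctrl (up to 2) and in Alc UA against Alc, which were thus selected on the result, and for companion lists for up to 2 called genes with the smallest p per comparison, and for Nfe2l1, Pomp, Psmf1 and Tap1 whatever their p. From these lists, 1 gene is not reported here. Alternatives to the pseudocount, filter, scaling, variance prior, library weights, libraries fitted and replicate block were computed. The labels do not say whether a replicate number links mice. Promoters came from a RefSeq table on GRCm38.p6, which matched 36 of 43 members, and had no entry for Psma8, Psmb1, Psmb2, Psmb7, Psmc3, Psmd3 and Psmd7. Plots used Python 3.11.15 and matplotlib 3.10.9.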

Additional observations from a re-analysis of the deposited data

Results flagged for a closer look

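In each group of 5 libraries, the highest and the lowest value of each tested proteasome gene were compared with the nearest other library by Dixon's test. Of 123 such groups, 6 held a library whose gap to the nearest other exceeded 0.71 of the group's range. Chance gives about 1 in 20 groups. For Psmc3, an ATPase, Ctrl 1 was lowest of its group at 70.05 FPKM. For Psmd4, the ubiquitin receptor, Ctrl 4 was highest of its group at 126.94 FPKM, and the fall in both alcohol groups was called without that library as well. For the lid subunit Psmd8, Ctrl 5 was lowest of Ctrl at 52.41 FPKM and Alc 4 was highest of Alc at 86.63 FPKM. For Psmd7, Alc 4 was highest of Alc at 40.32 FPKM, and for Psmd3, Alc UA 4 was highest of Alc UA at 45.79 FPKM.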

How the results depend on the processing

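Scaling had the widest effect on the counts of called members. In Alc against Ctrl the count higher was 1 as deposited, 2 after quantile normalization, 5 by median-of-ratios size factors, 3 with equal sums and 4 with library weights, and the count lower was 11 as deposited, 3 with median-of-ratios size factors, 1 with equal sums and 20 with library weights. In Alc UA against Ctrl the count higher went from 4 to 8 with median-of-ratios size factors, and the count lower from 14 to 2 with these and to 6 with equal sums. With median-of-ratios size factors the log2 fold changes of Psmb2 and Psmd6 in Alc UA against Ctrl were 0.0037 and 0.052, reversed in sign. Pseudocounts of 0.1 and 0.5, no filter or a stricter one, no mean trend and fitting 2 groups alone left the counts within 1.5 times. With 1 library left out the counts in Alc against Ctrl were 0 to 3 higher and 4 to 14 lower, and in Alc UA against Ctrl 3 to 4 higher and 9 to 14 lower. Over all 10959 genes they were 846 to 1231 higher and 1725 to 3382 lower in Alc. In Alc UA they were 876 to 1275 and 2793 to 4210. Between Alc UA and Alc the members' counts were 0 throughout. Leaving out Ctrl 1 and Ctrl 5 together, chosen after seeing the data, gave 1 higher and 8 lower in Alc and 4 higher and 12 lower in Alc UA. Over all genes this gave 1114 and 2571, and 1068 and 3507. The labels do not say whether a replicate number links mice. Correlations between deviations of same-numbered libraries were -0.30 to 0.29, which cannot show whether mice were linked. With the replicate block the counts were 1 higher and 9 lower in Alc and 4 higher and 14 lower in Alc UA. Over all genes they were 1060 and 2494, and 1051 and 3483. Psma3 and Psmd9 in Alc (adjusted p = 0.053 and 0.051) and Psmd6 in Alc UA (adjusted p = 0.060) were then not called by limma. For the pair ratios the block kept the differences. Its exact permutation p-values were 0.063 for Psmb8 to Psmb5 in Alc (0.70) and in Alc UA (0.60). For Psmb9 to Psmb6 in Alc (0.54) the p-value was 0.13. The block test exchanges groups only within the 5 replicate numbers, and 0.063 is the smallest p it can give. It could therefore not fall under 0.05 whatever the differences. Pseudocounts of 0.1 and 0.5 gave 0.60 for Psmb8 to Psmb5 in Alc UA (exact permutation p = 0.056 for both). With 1 library left out, Psmb8 to Psmb5 ran from 0.59 to 0.83 in Alc against Ctrl, 0.43 to 0.73 in Alc UA against Ctrl (exact permutation p = 0.0079 to 0.095) and -0.27 to -0.027 in Alc UA against Alc. Psmb9 to Psmb6 ran from 0.43 to 0.66 (exact p = 0.016 to 0.063), 0.30 to 0.65 and -0.23 to 0.12, and Psmb10 to Psmb7 from 0.17 to 0.52 (exact p = 0.016 to 0.36), -0.0067 to 0.34 and -0.25 to -0.087, in the same order of comparisons. Members called in neither fit changed sign in 60 of 755 fits in Alc against Ctrl, 93 of 1107 in Alc UA against Alc and 48 of 607 in Alc UA against Ctrl. The cause of these changes was not tested.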
